A study of Mus musculus with 3 samples.

Results

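The MHC class II genes and their machinery were described in immune cells sorted from the inflamed sciatic nerve. The set held 9 of the 32285 gene rows of each count matrix, chosen by gene symbol and not by any measured value. Its members were the class II chains H2-Aa, H2-Ab1 and H2-Eb1, the invariant chain Cd74, the transactivator Ciita, the H2-M chains H2-DMa and H2-DMb1, and the H2-O chains H2-Oa and H2-Ob. All 9 had a row in every matrix and all 9 passed the filter on low counts in the tests below. H2-Ea, the partner of H2-Eb1, had no row in the gene lists, so H2-Eb1 levels do not show whether a complete I-E molecule was made.

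The samples were CD45+ cells from the sciatic nerves of neuropathic mice of the genotype NOD.AireGW/+, profiled by 5′ single-cell RNA sequencing. AireGW is a hypomorphic allele of the tolerance gene Aire, carried here on NOD, a strain prone to autoimmunity, and the mice develop nerve inflammation spontaneously. Mice were perfused through the heart, nerves were digested with collagenase, and living CD45+ cells were collected by flow cytometry. There were 3 libraries of 1 group from 4 mice, with 1 mouse in each of libraries 1 and 2 and 2 pooled mice in library 3. With no control group among the files used here, cell classes were compared within libraries, and no effect of genotype or disease was tested.

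MHC class II molecules present peptides from endocytosed proteins to CD4+ T cells and are made mainly by B cells, macrophages and dendritic cells. The alpha and beta chains assemble on the invariant chain, which cathepsins later cut down to a fragment in the peptide groove. H2-M removes that fragment and edits the peptides, and H2-O binds H2-M and restrains it. Ciita is the coactivator that switches the whole gene set on, through a promoter module of X and Y boxes bound by RFX, CREB and NF-Y proteins.

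Of the 9 genes, 7 lie together in the MHC on chromosome 17 of mm10, in the order H2-Oa (17, 34092340 to 34095234, plus strand), H2-DMa (34119541 to 34139101), H2-DMb1 (34153072 to 34160230), H2-Ob (34238903 to 34254414), H2-Ab1 (34257689 to 34269419), H2-Aa (34282744 to 34287823, minus strand) and H2-Eb1 (34305867 to 34316674). Ciita lies on chromosome 16 (10480059 to 10528418) and Cd74 outside the MHC on another chromosome. These are the bounds of the protein-coding genes in the GENCODE annotation of that build.

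The promoter stretches below are shown because the module through which Ciita acts is known to lie just before the start of these genes, and they hold a core of its Y box. They are RefSeq promoters on GRCm38.p6, from 150 to 11 bases before the annotated start, written 5′ to 3′ on the gene's strand. Capitals mark a core of the Y box, GATTGG, searched on both strands.
H2-Oa, chr17:34092229-34092368 (+): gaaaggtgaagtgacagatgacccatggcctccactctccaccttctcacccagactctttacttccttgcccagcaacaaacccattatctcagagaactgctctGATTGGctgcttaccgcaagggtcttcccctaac
H2-Ob, chr17:34238755-34238894 (+): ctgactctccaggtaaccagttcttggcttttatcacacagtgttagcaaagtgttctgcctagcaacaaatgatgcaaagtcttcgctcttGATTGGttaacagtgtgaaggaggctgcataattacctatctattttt
H2-DMb1, chr17:34153041-34153180 (+): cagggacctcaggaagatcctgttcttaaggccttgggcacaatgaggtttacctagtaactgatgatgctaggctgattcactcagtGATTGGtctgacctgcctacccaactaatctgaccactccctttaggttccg
H2-Eb1, chr17:34305717-34305856 (+): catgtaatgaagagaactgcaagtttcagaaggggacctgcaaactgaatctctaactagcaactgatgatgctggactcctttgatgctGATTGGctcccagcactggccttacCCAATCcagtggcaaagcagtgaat
H2-Aa, chr17:34287834-34287973 (-): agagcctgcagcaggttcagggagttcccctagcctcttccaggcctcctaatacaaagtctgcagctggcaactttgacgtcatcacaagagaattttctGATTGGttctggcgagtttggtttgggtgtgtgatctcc
The Y core began 62, 60 and 58 bases before the start in H2-DMb1, H2-Eb1 and H2-Ob, 49 bases before it in H2-Aa and 44 bases before it in H2-Oa. H2-Eb1 held another Y core on the minus strand 35 bases before the start. H2-DMa has 2 annotated starts and is not shown, since neither window from 150 to 11 bases held the core. Among the 32851 mouse promoters of the table, each 250 bases before to 50 after a start and so longer than the stretches printed, 16.1% held the Y core. A match is a description of letters and does not show binding, and H2-Ab1 and Ciita were not in the promoter table. The Cd74 promoter is not shown either.

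The 3 libraries held 3926, 8311 and 1533 barcodes, with a median of 3985.5, 4659 and 1726 UMIs per cell. After filtering, 3848, 8256 and 1533 cells remained, and 78.2%, 74.5% and 80.4% of them were gated. The gate used 8 marker genes for each of 11 classes, with no class II gene among them, and placed a cell in the class with most markers detected. The names used below stand for these gates and are not the authors' annotation. In library 2, at least 7 of the 8 markers of each class were found in at least 10% of its own cells, except for neutrophils, a class of 2 cells there, with 6 such markers and 2 at 0 UMIs. Library 2 stood apart by its macrophages, which were 1789 cells (21.7%) there and 6 and 3 cells (0.156% and 0.196%) in libraries 1 and 3. Gated B cells numbered 315, 221 and 56 in libraries 1 to 3, T cells 2481, 3679 and 1099, plasma cells 39, 78 and 1, and monocytes 46, 61 and 24. Conventional type 1 dendritic cells (cDC1) numbered 27, 118 and 9, and plasmacytoid dendritic cells (pDC) 32, 78 and 6. Type 2 cells (cDC2) numbered 4, 24 and 1, and mature dendritic cells, marked by Ccr7 and Fscn1, 4, 46 and 2. Libraries 1 and 2 shared 36 cell barcodes, libraries 1 and 3 shared 7 and libraries 2 and 3 shared 14. NOD carries other class II alleles than the mm10 genome, so levels of the chains were compared between cell classes and not between genes.

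The cells that held the class II transcripts differed between libraries. In library 1, gated B cells held 24.4% of the UMIs of the 9 genes, cDC1 11.6% and T cells 6.47%. In library 3 the order was alike, with 21.5% in B cells, 18.8% in cDC1 and 6.28% in T cells. In library 2, macrophages held 46.9%, cDC1 4.71%, T cells 2.86% and B cells 1.50% of them. Cells outside every gate held 49.9%, 41.2% and 42.5%, so a large part of these transcripts lay in cells given no class. For the H2-O genes the shares were different from those of the set as a whole. B cells held 57.0%, 27.3% and 33.9% of the H2-Ob UMIs in libraries 1 to 3, and macrophages 6.45% in library 2. Of the H2-Oa UMIs, B cells held 42.6%, 13.2% and 40.0%, and macrophages 7.26% in library 2.

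**Figure D1:**
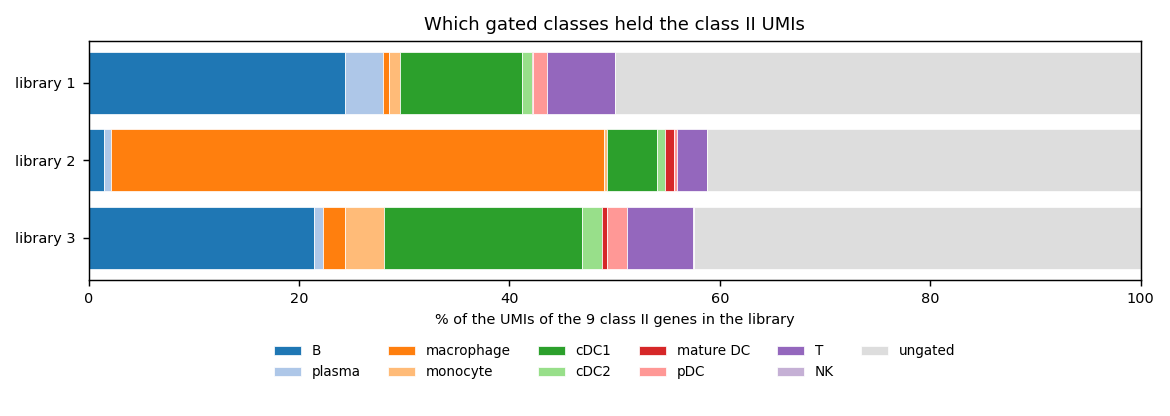
Share of the UMIs of the 9 class II genes (horizontal axis, %) held by each gated cell class, with 1 bar per library. Macrophages held the largest gated share in library 2 and B cells in libraries 1 and 3.

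The levels below are CPM, that is the UMIs of a gene as a rate over all UMIs of a class in 1 library, scaled to a common total and by TMM. Sums of fewer than 10 cells were left out, so macrophages, cDC2 and mature dendritic cells have a value in library 2 only, which carries no replicate error.

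H2-Aa encodes the alpha chain of the I-A molecule. Its level was 10251, 12346 and 11093 CPM in B cells of libraries 1 to 3, and 17188 and 21751 CPM in cDC1 of libraries 1 and 2. In library 2 it was 22652 CPM in macrophages, 21726 in cDC2 and 19679 in mature dendritic cells. All of these values were above every value in the remaining classes. Monocytes had 1203, 6742 and 2018 CPM, pDC 2476 and 4300.0 CPM, and plasma cells 2725 and 2111 CPM. T cells, which in mice are not known to make class II, had 268, 976 and 140.1 CPM, highest in library 2. In the order of means, pDC, monocytes and plasma cells overlapped their neighbours, as did mature dendritic cells and cDC1.

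H2-Ab1, the I-A beta chain, had 2980.3, 5213 and 4883 CPM in B cells and 7944 and 13317 CPM in cDC1. It reached 16054 CPM in macrophages, 14558 in cDC2 and 10056 in mature dendritic cells of library 2. Monocytes had 665, 4395 and 1198 CPM, so that the library 2 monocytes lay within the range of B cells. H2-Eb1, the I-E beta chain, had 5407, 7264 and 6767 CPM in B cells, 9910.4 and 12926 CPM in cDC1 and 16182 CPM in the library 2 macrophages. Its monocyte values were 424.0, 3692 and 852 CPM. For all 3 chains the means of macrophages and of the dendritic cells other than pDC were at the top, B cells came next, and T cells were near the bottom, while monocytes, pDC and plasma cells changed places between them.

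Cd74, the invariant chain and the most counted of the members, was the steadiest in B cells, at 25992, 25500.4 and 25458 CPM, or 25650.1 ± 297 (SD, n = 3). It was 33989 and 34657 CPM in cDC1, 51696 CPM in macrophages, 42237 CPM in cDC2 and 35081 CPM in mature dendritic cells. Monocytes, at 5297, 13700.0 and 5967 CPM, and pDC, at 6774 and 8884 CPM, lay below the B cell range. Plasma cells kept 19134 and 14993 CPM on this scale. That value rests on the scaling, because immunoglobulin transcripts took 62.5% and 56.8% of the plasma cell UMIs in libraries 1 and 2, against 1.27% and 1.07% in B cells. Without TMM scaling, plasma cells had 7320.2 and 5975.5 CPM of Cd74 and B cells 30771 and 27367 CPM.

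The ratio of Cd74 to the chains needs no scaling and set plasma cells apart in both libraries that had enough of them. Plasma cells had 3.12 and 2.74 Cd74 UMIs per UMI of H2-Aa, H2-Ab1 and H2-Eb1 in libraries 1 and 2, against 1.39 and 1.03 in B cells, where library 3 gave 1.12. The ratio was 0.970 and 0.722 in cDC1 and 0.942 in the library 2 macrophages. Monocytes varied, at 2.31, 0.924 and 1.47. The values are given with no test.

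**Figure D2:**
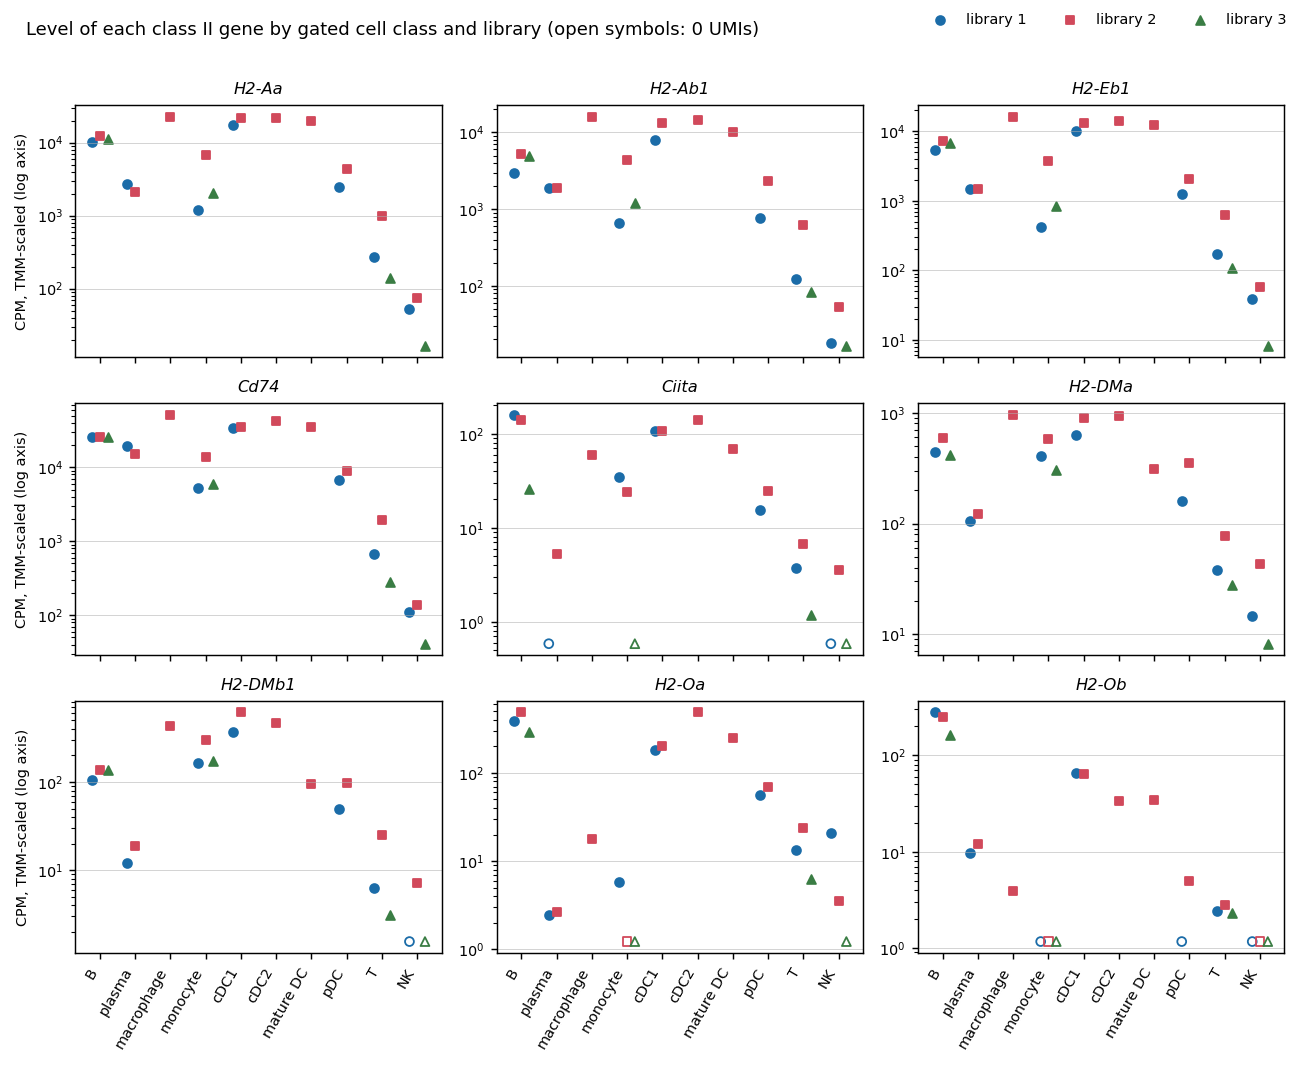
Level of each of the 9 genes (vertical axis, TMM-scaled CPM on a log axis) in each gated cell class, with 1 symbol per library and open symbols for 0 UMIs. The chains and Cd74 are highest in macrophages, cDC1, cDC2 and mature dendritic cells, followed by B cells, while H2-Oa and H2-Ob are high in B cells and near the floor in monocytes.

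Ciita was a low-count gene in every class. B cells had 160.1, 139 and 25.7 CPM in libraries 1 to 3, from 242, 99 and 3 UMIs, so the library 3 value rests on very few molecules. cDC1 had 108 and 106 CPM, cDC2 141 CPM, mature dendritic cells 68.9 CPM and macrophages 59.0 CPM. Plasma cells had 0 and 4 UMIs, which is 0 and 5.32 CPM. After each cell was thinned to 1000 UMIs, 16.9%, 13.1% and 3.92% of B cells in libraries 1 to 3 held a Ciita UMI (exact 95% intervals 12.8 to 21.7, 8.97 to 18.3 and 0.482 to 13.5), against 0.540%, 0.280% and 0.106% of T cells. Unthinned, the shares were 43.8%, 34.4% and 5.36% of B cells at a median of 4054, 2573 and 1785 UMIs, and 1.41%, 2.09% and 0.273% of T cells at 3533, 2671 and 1776 UMIs. The B cell shares in libraries 1 and 2 thus lay above the T cell background at equal depth.

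H2-DMa and H2-DMb1 encode the chains of H2-M, the peptide editor. H2-DMa was 443, 587 and 411 CPM in B cells and 407, 579 and 302 CPM in monocytes, which overlapped. It was 636 and 889 CPM in cDC1, 963 CPM in macrophages and 937 CPM in cDC2. H2-DMb1 ordered the classes differently. Monocytes had 163, 295 and 173 CPM of it and B cells 106, 137 and 137 CPM, so every monocyte value was above every B cell value. cDC1 had 371 and 615 CPM, cDC2 466 CPM and macrophages 429 CPM. Mature dendritic cells were low for both genes, with 310.2 CPM of H2-DMa and 95.7 CPM of H2-DMb1 in library 2. H2-DMb1 has a near-identical neighbour, H2-DMb2, and the counting could split reads between them, so both of their values are uncertain. H2-DMb2 had the opposite order of B cells and monocytes, at 1681, 1562 and 1422 CPM in B cells and 284, 415 and 259 CPM in monocytes.

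H2-Oa and H2-Ob encode the chains of H2-O, which restrains H2-M. H2-Oa was 388, 486 and 291 CPM in B cells, 486 CPM in cDC2, 249 CPM in mature dendritic cells and 180.1 and 200.1 CPM in cDC1. Macrophages had 17.8 CPM, plasma cells 2.45 and 2.66 CPM and monocytes 5.73, 0 and 0 CPM. H2-Ob was more limited to B cells, at 280, 251 and 163 CPM against 65.7 and 64.0 CPM in cDC1, 34.0 CPM in cDC2 and 34.5 CPM in mature dendritic cells. It was 3.93 CPM in macrophages and 2.40, 2.83 and 2.34 CPM in T cells. Monocytes had 0 H2-Ob UMIs among 650430 UMIs in all, so the level in B cells was at least 66.0-fold higher, taking 3 counts over the group as the floor.

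At equal depth, 38.2%, 39.8% and 35.3% of B cells held an H2-Oa UMI, against 1.17%, 1.40% and 0.424% of T cells. The same shares for H2-Ob were 27.7%, 27.6% and 17.6% of B cells against 0.225%, 0.140% and 0.212% of T cells. In unthinned cells, H2-Oa was found in 7.88% of the library 2 macrophages (exact 95% interval 6.67 to 9.23), at a median of 7245 UMIs, and in 5.11% of the T cells of that library. The macrophage share at equal depth was 1.56%, close to the T cell background.

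The proportion of the 2 complexes varied across classes. B cells had 1.22, 1.02 and 0.828 UMIs of H2-Oa and H2-Ob per UMI of H2-DMa and H2-DMb1 in libraries 1 to 3. The ratio was 0.244 and 0.176 in cDC1, 0.269 and 0.167 in pDC, and 0.104 and 0.105 in plasma cells. In library 2 it was 0.698 in mature dendritic cells, 0.370 in cDC2 and 0.0156 in macrophages. Monocytes had 0.0101, 0 and 0, and T cells 0.352, 0.257 and 0.275. NK cells had 1.40 in library 1, from 7 and 5 UMIs, and 0.0714 in library 2, from 1 and 14. Counting H2-DMb2 with H2-M lowered the B cell ratio to 0.300, 0.322 and 0.230 and the macrophage ratio to 0.0108. B cells stayed above macrophages and monocytes, while T cells, cDC1, pDC and cDC2 lay nearer to B cells on this count. T cells had 0.229, 0.157 and 0.198. In libraries 1 and 2, pDC had 0.167 and 0.111 and cDC1 0.119 and 0.102. Library 2 gave 0.220 in mature dendritic cells and 0.180 in cDC2.

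**Figure D3:**
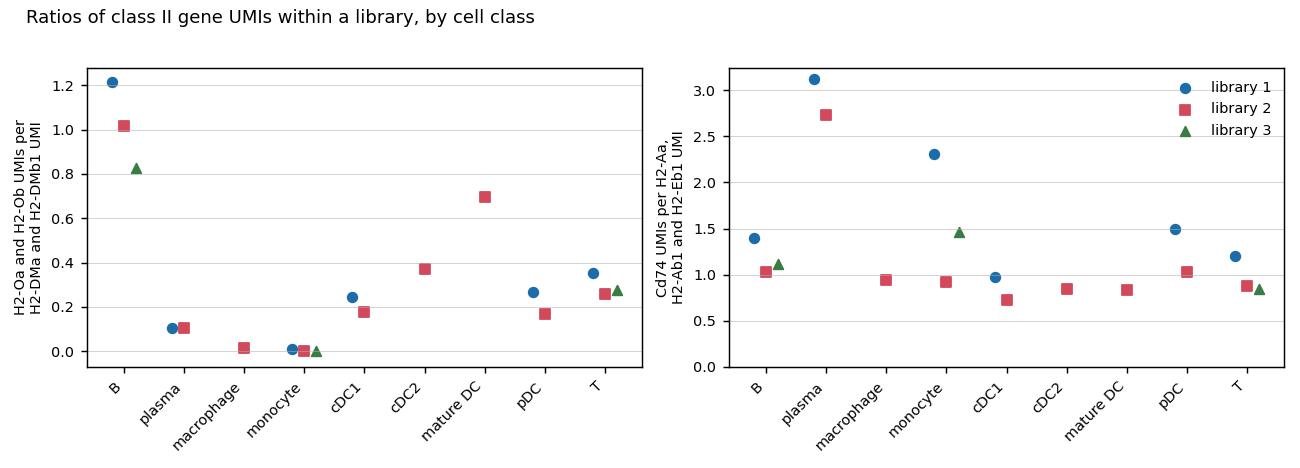
UMI ratios within a library by gated cell class, with 1 symbol per library: H2-Oa and H2-Ob over H2-DMa and H2-DMb1 (left) and Cd74 over H2-Aa, H2-Ab1 and H2-Eb1 (right), for sums of at least 10 cells and without NK cells and neutrophils. Among the classes plotted, B cells have the highest left-hand ratio, macrophages and monocytes sit near 0, and plasma cells have the highest right-hand ratio.

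B cells were compared with T cells to set the members against a background class. All 9 members were higher in B cells, in a comparison where 34.0% of 8252 genes passed the test with 13.7% passing as higher and 20.3% as lower. The log2 difference was 5.01 ± 0.65 (SE) for H2-Aa, 4.44 ± 0.63 for H2-Ab1, 4.80 ± 0.68 for H2-Eb1 and 5.06 ± 0.57 for Cd74, with adjusted p from 6.63e-05 to 0.000361. Ciita differed by 4.84 ± 0.26 (adjusted p = 6.31e-17) and the H2-O chains by 4.72 ± 0.22 for H2-Oa and 6.58 ± 0.24 for H2-Ob. H2-DMa and H2-DMb1 differed least, by 3.38 ± 0.19 and 3.43 ± 0.35. The median over the members was 4.80, against -0.10 over all genes tested. Without library 1, 6 of the 9 passed.

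In plasma cells, the antibody-secreting end stage of B cells, 7 of the 9 members were lower than in B cells. Of 8252 genes, 41.1% passed this test, 19.3% as higher and 21.8% as lower. The log2 difference was -7.52 ± 0.45 (SE) for H2-Oa and -4.57 ± 0.34 for H2-Ob. It was -5.51 ± 0.48 for Ciita, -3.25 ± 0.54 for H2-DMb1 and -2.32 ± 0.23 for H2-DMa. H2-Aa differed by -2.49 ± 0.70 (adjusted p = 0.0178) and H2-Eb1 by -2.41 ± 0.73 (adjusted p = 0.0254). H2-Ab1, at -1.31 ± 0.67 (adjusted p = 0.154), and Cd74, at -0.93 ± 0.57 (adjusted p = 0.238), did not pass. All of these differences rest on the TMM scaling, as the Cd74 levels above do. The TMM factors in libraries 1 and 2 were 0.383 and 0.399 for plasma cells and 1.18 and 1.07 for B cells. A smaller factor raises the scaled level, so a test that did not pass does not show that plasma cells kept the B cell level. The H2-Oa difference rests on 3 UMIs in plasma cells, which put the B cell level 473-fold higher with a counting interval of 161 to 2299. The median over the members was -2.49, against -0.17 over all genes. The number of members that passed was 5 without the library block, 5 without library 1, 9 without library 2 and 5 without library 3. B cell markers were present in plasma cells at a summed level of 728 and 567 CPM, against 7057 and 6126 CPM in B cells, with 3 of the 8 at 0 UMIs, and their part in these values was not tested.

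Monocytes, the circulating precursors of many tissue macrophages, were compared with B cells in a contrast added after the data were seen. There 6 members were lower in monocytes and none passed as higher, where 38.0% of genes passed, 19.3% as higher and 18.7% as lower. H2-Oa differed by -7.18 ± 0.49 (SE) on the log2 scale, from 2 UMIs in monocytes, which gave a 154-fold higher B cell level with a counting interval of 42.6 to 1275. The difference was -2.39 ± 0.36 for Ciita, -2.40 ± 0.62 for H2-Eb1, -2.08 ± 0.58 for H2-Aa and -1.80 ± 0.49 for Cd74, the last with adjusted p = 0.0167. H2-Ob, at 0 UMIs in monocytes, was the remaining member that passed. H2-DMa differed by -0.18 ± 0.19 (adjusted p = 0.486), H2-DMb1 by 0.77 ± 0.37 (adjusted p = 0.121) and H2-Ab1 by -1.47 ± 0.57 (adjusted p = 0.0689). The median over the members was -2.08, against -0.20 over all genes. Without the block 4 members passed as lower, and with 1 library left out 3 without library 1, 7 without library 2 and 3 without library 3. H2-DMb1 passed as higher in monocytes without library 1 and without library 3. When cells were clustered in place of the gate, 128 gated monocytes shared a cluster with 107 gated macrophages and 398 ungated cells. That cluster took no class name, so this contrast was not fitted with clusters. Macrophage markers had a summed level of 1231, 957 and 346 CPM in monocytes of libraries 1 to 3, with 3, 1 and 4 of the 8 at 0 UMIs. Their part in the monocyte levels was not tested.

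cDC1, which specialise in cross-presentation, differed from B cells in 3 members, in a contrast added after the data were seen where 39.1% of genes passed. H2-DMb1 was higher in cDC1 by 1.82 ± 0.35 (SE, adjusted p = 0.000951). Its near-identical neighbour H2-DMb2 had the opposite order, at 1060 to 1074 CPM in cDC1 and 1422 to 1681 CPM in B cells. The H2-DMb1 difference therefore does not show more H2-M beta chain in cDC1. H2-Oa and H2-Ob were lower, at -1.29 ± 0.23 and -2.03 ± 0.24 on the log2 scale (adjusted p = 2.88e-05 and 4.76e-08). Of all genes, 19.6% passed as higher and 19.5% as lower. The other members did not pass, with H2-Aa at 0.43 ± 0.65, H2-Ab1 at 1.01 ± 0.64, H2-Eb1 at 0.48 ± 0.68, Cd74 at 0.06 ± 0.56, Ciita at -0.54 ± 0.25 and H2-DMa at 0.45 ± 0.20. The chains and Cd74 were higher in cDC1 than in B cells in both shared libraries, for Cd74 at 33989 and 34657 against 25992 and 25500.4 CPM. Their fitted differences were smaller than those of the levels. The fit gave all classes a common library effect and included B cells of library 3, which had no cDC1 sum. The median over the members was 0.43, against -0.09 over all genes. Without the block, 1 member passed as higher and 1 as lower. Without library 2, 3 members passed as higher and 2 as lower, and without library 3, 2 passed in each direction.

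pDC, known for secreting type I interferon, had lower levels than B cells for 7 of the 9 members, in a contrast also added after the data were seen. There 26.0% of genes passed, 14.1% as higher and 11.9% as lower. H2-Ob differed by -6.55 ± 0.49 (SE) on the log2 scale, from 2 UMIs in pDC, which put B cells 92.0-fold higher with a counting interval of 25.4 to 762. Ciita differed by -2.89 ± 0.38, H2-Oa by -2.87 ± 0.29 and H2-DMa by -1.17 ± 0.22. The chain H2-Aa was at -2.15 ± 0.69 (adjusted p = 0.047), H2-Eb1 at -2.35 ± 0.73 (adjusted p = 0.0416) and Cd74 at -2.10 ± 0.60 (adjusted p = 0.0279). H2-DMb1 and H2-Ab1 did not pass, at -0.95 ± 0.45 and -1.96 ± 0.68. The median over the members was -2.15, against -0.09 over all genes. The number that passed was 3 without the block, 5 with the size factors of DESeq2, 4 without library 1, 9 without library 2 and 4 without library 3.

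**Figure D4:**
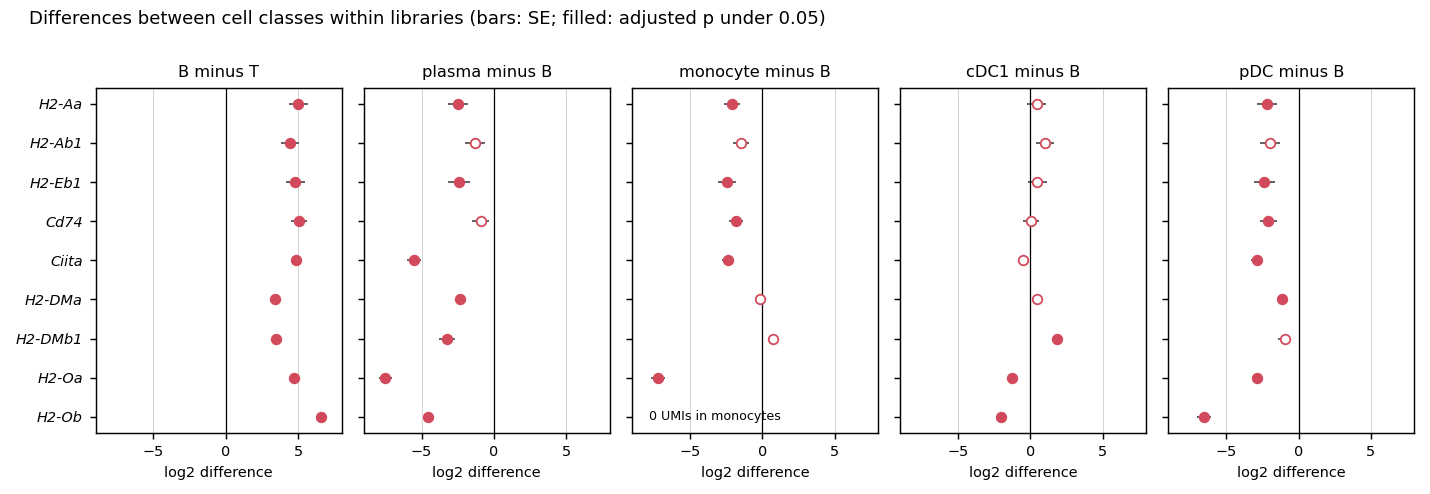
Log2 difference of each gene between gated cell classes (horizontal axis, first class minus second, edgeR with the library as a block), with SE bars and filled symbols for adjusted p under 0.05. All 9 genes are higher in B than in T cells, H2-Oa and H2-Ob are lower than B cells in every other class shown, and H2-Ob in monocytes is not drawn because it had 0 UMIs.

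The comparisons that involve macrophages, cDC2 or mature dendritic cells needed sums of as few as 3 cells, and were made that way after the data were seen. Outside library 2 they rest on 6 and 3 macrophages in libraries 1 and 3, and on 4 cDC2 and 4 mature dendritic cells in library 1. Between macrophages and monocytes, H2-Ab1, H2-Aa, H2-Eb1 and Cd74 were higher in macrophages, by 2.21 ± 0.53, 1.96 ± 0.53, 2.69 ± 0.54 and 1.77 ± 0.47 (SE) on the log2 scale, in a comparison where 9.09% of 7126 genes passed, 4.18% as higher and 4.91% as lower. The other members did not pass, with Ciita at 0.88 ± 0.46 and H2-DMa at 0.45 ± 0.34. No member passed without the block or without library 3, so the call depends on both. With the size factors of DESeq2, the genes that passed went from 298 higher and 350 lower to 437 and 238.

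cDC2 exceeded macrophages in 3 members, where 11.1% of genes passed, 4.60% as higher and 6.53% as lower. H2-Oa was higher by 4.62 ± 0.43 (SE, adjusted p = 1.18e-17), H2-Ob by 3.58 ± 0.67 (adjusted p = 1.28e-05) and Ciita by 1.17 ± 0.41 (adjusted p = 0.0444). The chains and Cd74 differed by -0.29 to 0.02, with SE from 0.52 to 0.58. Of the 3 members, 2 passed with DESeq2, with no filter on low counts and without the block. The number was also 2 without the top 5% of cells by UMIs, and with T cells limited to those without markers of a second list. Without library 2, 1 of these members passed. H2-Ob also depended on depth: with cells thinned to 1000 UMIs its difference was -4.06 and did not pass. Between cDC1 and cDC2, where 3.79% of genes passed (1.42% as higher and 2.37% as lower), none of the 9 members passed with edgeR or with DESeq2, while 2 had an unadjusted p under 0.05 and 1 passed with the size factors of DESeq2. H2-Oa was the nearest, at -1.01 ± 0.32 (adjusted p = 0.0558). Genes that passed there went from 101 higher and 169 lower to 75 and 226 with those size factors.

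Mature dendritic cells had less H2-M than the mean of cDC1 and cDC2. H2-DMb1 differed by -2.78 ± 0.46 (SE) on the log2 scale and H2-DMa by -1.96 ± 0.40 (adjusted p = 9.98e-07 and 5.95e-05), in a comparison where 15.5% of genes passed, 9.14% as higher and 6.34% as lower. H2-Oa and H2-Ob did not pass, at -0.54 ± 0.34 and -0.90 ± 0.58, nor did Cd74 at -0.89 ± 0.50. Without library 2, 6 members passed as lower, and without the block 1 did. With the 5% of cells of highest UMI count left out, 6 passed as lower. Genes that passed went from 651 higher and 452 lower to 858 and 363 with the size factors of DESeq2.

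pDC were lower than cDC2 in 8 members, where 13.2% of genes passed, 6.86% as higher and 6.30% as lower. Ciita differed by -2.60 ± 0.52 (SE) on the log2 scale, H2-Oa by -2.62 ± 0.38, H2-DMb1 by -2.14 ± 0.42 and Cd74 by -1.72 ± 0.52, while H2-Aa, at -1.74 ± 0.58 (adjusted p = 0.0622), did not pass. Without the block, 4 members passed. B cells differed from cDC2 in H2-Ob, higher by 2.42 ± 0.43 (adjusted p = 2.95e-06), and in H2-DMb1, lower at -1.17 ± 0.38 (adjusted p = 0.0188), where 19.4% of genes passed, 9.21% as higher and 10.2% as lower. Neither passed without library 2, and H2-DMb1 did not pass without the block. With all libraries and the block, H2-Ob was therefore higher in B cells than in T cells, plasma cells, monocytes, cDC1, pDC and cDC2. For cDC2 this rests on 4 cells of library 1 and 24 of library 2. H2-DMb2, the near-identical neighbour of H2-DMb1, was not lower in B cells of library 2, at 1562 CPM against 1476 CPM in cDC2.

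Single cells of a class varied in how much of their RNA was class II. The 4 most counted members, H2-Aa, H2-Ab1, H2-Eb1 and Cd74, made up a median of 5.40%, 5.57% and 5.62% of a B cell's UMIs in libraries 1 to 3. In cDC1 the median was 7.53% and 7.82% in libraries 1 and 2, and in library 2 it was 9.41% in cDC2 and 8.63% in macrophages. The macrophages spread from 3.22% at the 5th percentile to 12.6% at the 95th. Monocytes had medians of 0.258%, 0.561% and 0.692%, yet their 95th percentile in library 2 was 6.61%, within the B cell range. Mature dendritic cells of library 2 spread over 0.351% to 12.3% around a median of 3.37%. Plasma cells, at 0.733% and 0.677%, and pDC, at 1.20% and 1.81%, had lower medians and narrower spreads than these mature dendritic cells. Both classes had higher medians than the monocytes of libraries 1 and 2. The plasma cell shares are of all UMIs, of which immunoglobulin transcripts took 62.5% and 56.8%.

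**Figure D5:**
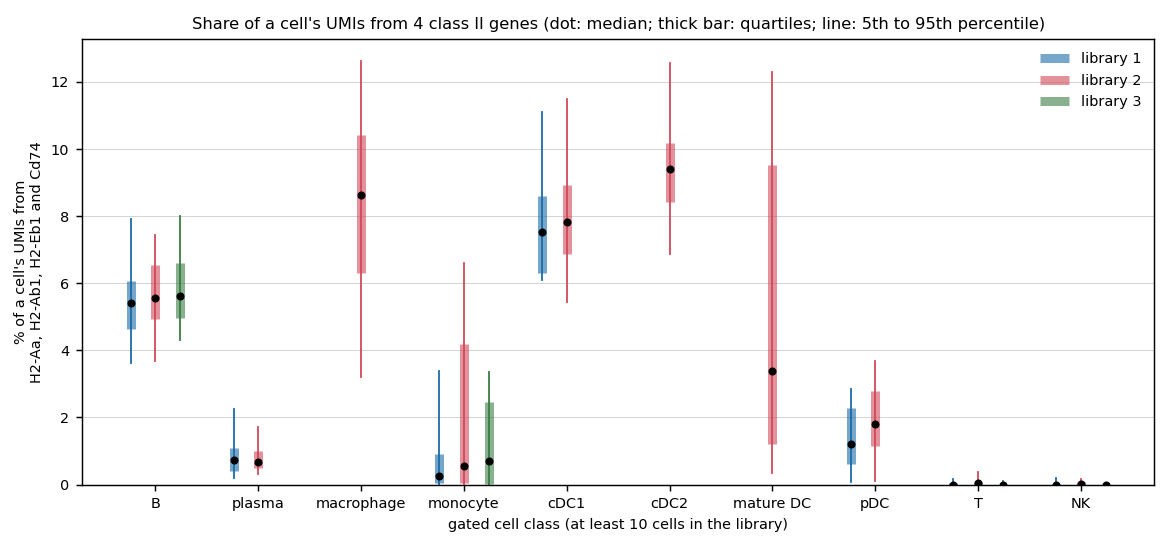
Share of a cell's UMIs that came from H2-Aa, H2-Ab1, H2-Eb1 and Cd74 (vertical axis, %) by gated cell class and library, for classes with at least 10 cells, with dots for medians, thick bars for quartiles and lines from the 5th to the 95th percentile. B cells and cDC1 form tight groups, while monocytes and mature dendritic cells of library 2 spread from near 0 to above the B cell median.

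Class II transcripts in gated T cells were concentrated in few cells. Only 27, 118 and 6 T cells in libraries 1 to 3 had more than 1% of their UMIs from those 4 genes, and they held 84.0%, 89.8% and 73.3% of the class's UMIs of them. Those cells had a median of 13008, 10190.0 and 1880.5 UMIs, against 3496, 2618 and 1776 in the other T cells. They also held a median of 9, 8 and 3.5 of 64 markers of other classes, against 1, 1 and 0. Macrophage markers summed to 10.7, 109 and 7.61 CPM in T cells of libraries 1 to 3, with 0, 0 and 2 of the 8 at 0 UMIs, so T cells of library 2, which had the most class II, also had the most macrophage transcripts. Their part in the T cell levels was not tested. With T cells limited to the 419, 850 and 466 cells that had no marker of a second list, all 9 members still passed as higher in B cells, and Cd74 in those T cells was 107, 244 and 88.3 CPM without TMM scaling.

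Relative to Cd74, some members were more counted in those T cells than in B cells. H2-DMa was at 37.8, 46.9 and 30.7 CPM, which is 35.5, 19.2 and 34.8 H2-DMa UMIs per 100 Cd74 UMIs (exact 95% intervals 23.9 to 51.5, 15.2 to 24.1 and 20.9 to 56.1). B cells of the same libraries had 1.71, 2.30 and 1.62 per 100, and no interval of the T cells reached these. NK cells had 13.5 and 31.6 H2-DMa UMIs per 100 Cd74 UMIs in libraries 1 and 2, from 5 and 12 UMIs. H2-Oa in those T cells was 10.0, 4.02 and 4.35 per 100 Cd74 UMIs (4.85 to 18.6, 2.40 to 6.34 and 0.875 to 13.2), against 1.49, 1.90 and 1.14 in B cells, so the intervals of libraries 1 and 2 lay above the B cell values and that of library 3, from 3 UMIs, did not. H2-Eb1 lay above the B cell value of 20.8 in library 1 only, at 45.5 (31.9 to 64.0), and overlapped the B cell values in libraries 2 and 3. Cd79a, a B cell gene, and C1qa, a macrophage gene, were at 0 UMIs in them, as the selection of these cells requires.

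Across the 21 class sums of at least 10 cells, the H2-O genes and Ciita had profiles less like those of the other members. The correlations are descriptive, since sums of 1 library share mice and a few classes set the range. On log2(CPM + 1), H2-Aa, H2-Ab1, H2-Eb1 and Cd74 had pairwise Pearson correlations from 0.97 to 1.00, and H2-DMa and H2-DMb1 had 0.98 with each other and 0.88 to 0.95 with the chains and Cd74. H2-Oa and H2-Ob had 0.80 with each other, with 0.53 to 0.70 for the chains and Cd74 and 0.46 to 0.54 for the H2-M genes. Ciita had 0.74 to 0.82 with the chains, Cd74 and H2-M. Among 5277 other genes, those most like the mean of the chains and Cd74 were H2-DMb2 (0.942), Plekho1 (0.924), Themis2 (0.911), Ifi30 (0.905) and Cd83 (0.903). Those most like Ciita were Erlin1 (0.886), Kynu (0.879), Gm6377 (0.876), Wdfy4 (0.857), itself a cDC1 gate marker, and Fgd2 (0.854). Those most like the mean of H2-Oa and H2-Ob were Ccr6 (0.891), Btla (0.843), Siglecg (0.835), Dpp4 (0.830) and Fchsd2 (0.802).

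Of 34 further genes of the class II pathway, 32 were tested in the comparisons with B cells. In B against T cells 14 were higher and 9 lower, that is 43.8% and 28.1% of them, where 13.7% and 20.3% of all genes tested passed. Both genes listed for class II protein turnover were higher in B cells, March1, a ubiquitin ligase of class II, by 5.05 on the log2 scale and Cd83, which opposes it, by 4.40. The co-stimulatory genes Cd40 and Cd86 were higher by 3.99 and 2.84, as were the processing genes Ifi30, Lgmn and Ctss by 2.99, 2.35 and 1.08. The processing gene Ctsb went the other way, at -2.45, and Ctsl and Sppl2a did not pass. Cd4 and Lag3, class II ligands on T cells, were lower in B cells, at -6.54 and -5.01. Of the 6 promoter complex genes tested none was higher, and Nfyb and Rfxap were lower, at -0.69 and -0.66.

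In plasma against B cells 4 pathway genes were higher and 14 lower (12.5% and 43.8%), against 19.3% and 21.8% of all genes. Prdm1, the plasma cell factor that represses Ciita, was higher by 2.34 and Irf4 by 0.97. March1 was at -5.21, Cd86 at -4.70, Cd40 at -4.55 and Cd83 at -3.53. Of the processing genes, Ctsb was higher by 2.53 and Ifi30 was lower, at -2.15. Of the 6 genes on the route from interferon gamma to Ciita, 5 were lower, among them Ifngr2 at -4.46 and Jak1 at -3.21. In monocytes 10 pathway genes were higher and 6 lower than in B cells (31.2% and 18.8%), against 19.3% and 18.7% of all genes, so the share that was lower was that of the background. Of the 6 processing genes, 5 were higher, with the cathepsins Ctsl, Ctsb and Ctss at 4.30, 4.03 and 2.39, Lgmn at 3.18 and Sppl2a at 1.48.

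Against B cells, cDC1 were higher in 8 pathway genes and lower in 4 (25% and 12.5%), against 19.6% and 19.5% of all genes, so these counts are near or below the background. Spi1 was at 2.48, Irf8 at 1.57, Cd86 at 0.97 and Irf4 at -4.48. pDC were higher in 7 and lower in 11 (21.9% and 34.4%), against 14.1% and 11.9% of all genes, with Ctsl at 8.11 and Cd4 at 5.97, while Cd86 was at -5.97, Cd83 at -4.25, Cd40 at -3.48 and March1 at -3.21. Mature dendritic cells were higher than cDC1 and cDC2 in 6 of 33 pathway genes and lower in 4 (18.2% and 12.1%), against 9.14% and 6.34% of all genes. They were higher in all 3 co-stimulatory genes, Cd80 by 2.79, Cd40 by 2.38 and Cd86 by 1.21, while March1 was at -3.62. The latter comparison rests on the same small sums as above.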

How the data were processed

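Per the study's methods and the processing notes, the authors aligned the 5′ reads to the mm10 genome using Cell Ranger (5.0.1 for library 1, 6.1.2 for libraries 2 and 3) and deposited raw UMI counts of filtered barcodes, 1 matrix per library. Library 1 came with no gene list among the files used here. Its rows were read in the order of the identical lists of libraries 2 and 3, which gave Spearman correlations of row totals of 0.950 and 0.929, against 0.362 and 0.321 with the order shifted by 1 row.

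Kept cells had at least 300 UMIs, at most 5000 genes and at most 20% mitochondrial UMIs, the study's limits. A cell was placed in the class with most of its 8 markers detected, if at least 3 were and the runner-up list had at most 0.5 times as many, a limit that also removes many mixed barcodes. No doublet caller was run, and an alternative left out the 5% of cells with most UMIs. UMIs were summed per library and class, for at least 10 cells, or at least 3 where stated. Sums of all classes were fitted together by edgeR 4.0.16 (R 4.3.3, quasi-likelihood test), with TMM, filterByExpr and the library as a block, because classes of 1 library share mice. P-values were adjusted by Benjamini-Hochberg over all genes tested, with a call under 0.05. Shares of cells were compared after thinning to 1000 UMIs, leaving out shallower cells (19, 0 and 5 B cells and 257, 113 and 156 T cells), and intervals cover counting error only. Other steps used Python 3.11.15 with scanpy 1.11.5 and scipy 1.17.1. The fit was tested on simulated data.

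The members, markers and pathway lists were chosen with earlier results of these data known. All 9 members are named, with some of the pathway genes that passed. Also named are the 5 genes most alike to 3 member profiles among those with a mean of at least 20 CPM. Replicates are libraries. With the library as a block, p-values measure how far class sums depart from a fit of class plus library. That spread was estimated over all classes and moderated across genes, so it is not the spread of the compared classes alone. The block gives every class the same library effect, so a fitted difference can depart from the differences seen within single libraries. The alternatives were DESeq2 1.42.0 and its size factors, no filter on low counts, no library block, each library left out, a stricter gate, clusters (resolution 2) in place of the gate, no gene limit, no top 5% of cells by UMIs, thinned counts, and T cells without markers of a second list. The paired receptor sequencing was not used here.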

Additional observations from a re-analysis of the deposited data

How the results depend on the processing

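Depth limits the low-count members most, and library 3 has sums of at least 10 cells for B cells, monocytes, T cells and NK cells only. Of 1128 member differences under alternatives, 973 kept their direction and side of the threshold, 71 no longer passed, 45 passed where they had not, and 39 changed sign. Scaling with the size factors of DESeq2 moved the median of all genes by over 0.1 (log2) in 5 comparisons, by 0.18 for macrophages against monocytes, -0.18 for cDC1 against cDC2, 0.16 for mature dendritic cells, 0.11 for pDC against cDC2 and 0.13 for B cells against cDC2. The stricter gate could be fitted only for B against T cells and monocytes against B cells, clusters only for the comparisons of T cells, plasma cells, cDC1 and pDC with B cells, and the setting without the top 5% of cells not for plasma cells.

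Genes that passed numbered 2803 for B against T cells (1690 to 2671 with 1 library left out, 1677 with no library block, 905 thinned), 3395 for plasma against B cells (1947 to 3421, 634 thinned), 3136 for monocytes against B cells (1907 to 2943, 857 with the stricter gate, 1024 thinned), 3226 for cDC1 against B cells (1796 to 3282, 745 thinned) and 2142 for pDC against B cells (1176 to 2174, 1407 with no block, 651 thinned). In the small sums they numbered 648 for macrophages against monocytes (270 to 536, 224 with DESeq2, 198 with no block, 183 thinned), 793 for cDC2 against macrophages (195 to 747, 435 with DESeq2, 404 with no block, 155 thinned), 270 for cDC1 against cDC2 (101 to 245, 126 with no block, 30 thinned), 1103 for mature dendritic cells (168 to 1078, 648 with no block, 224 thinned), 938 for pDC against cDC2 (302 to 862, 597 with DESeq2, 600 with no block, 183 thinned) and 1380 for B cells against cDC2 (487 to 1315, 328 thinned). By construction, thinned cells hold fewer UMIs and fits without 1 library hold fewer sums. For the rest the cause was not tested.

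Of the 39 changes of sign, 2 concerned a member that had passed, H2-Ob with thinned cells, at -4.06 for cDC2 against macrophages and 4.50 for pDC against cDC2, neither of which passed. The others had not passed. For monocytes against B cells H2-DMb1 was -0.0156 with the stricter gate and -0.0437 thinned. For cDC1 against B cells Cd74 was -0.42 thinned, and with 1 library left out H2-Aa ranged from -0.0985 to 0.85, H2-Eb1 from -0.11 to 0.93 and Cd74 from -0.43 to 0.48. For macrophages against monocytes H2-DMb1 was -0.00636 without the top 5% of cells, and with 1 library left out it ranged from -0.63 to 0.36 and H2-Oa from -5.32 to 7.89. For cDC2 against macrophages H2-Aa was -0.33 with the size factors of DESeq2, -0.34 with DESeq2, -0.13 with no filter, -0.40 thinned and -0.00267 to 0.13 with 1 library left out. There H2-Ab1 was 0.063 with no block, 0.016 with the limited T cells and -0.13 to 0.013 with 1 library left out, and Cd74 was 0.047, 0.021 and -0.12 to 0.13. For cDC1 against cDC2 H2-Ob ranged from -0.64 to 0.95. For B cells against cDC2 H2-Aa, H2-Eb1 and Cd74 were -0.043, -0.14 and -0.056 with no filter, -0.33, -0.49 and -0.25 with no block, and ranged from -0.17 to 0.65, -0.37 to 0.54 and -0.20 to 0.59. There Ciita was -0.047 with no block, H2-Ab1 0.030 thinned, and H2-DMa 0.90 thinned and -0.39 to 0.44 with 1 library left out.

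Of 648 levels of a member in a class under alternatives, 163 moved, most with thinned cells (43 of 90), clusters (39 of 72) and the stricter gate (28 of 54). A level moved if it changed by more than 1 SD between libraries. For a class with a value in 1 library only, it moved if it left the counting interval of that value, which is narrow for genes of high count.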
